A study of Homo sapiens with 8 samples.

Results

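The 10 genes described here encode 6 insulin-like growth factor (IGF) binding proteins, IGFBP2 to IGFBP7, the receptors IGF1R and IGF2R, and the stanniocalcins STC1 and STC2. They were taken by symbol from the 50006 gene rows of the count files, and all 10 passed the filter on low counts. The family was selected on fold changes between these same groups, which were already known (IGFBP3 and STC2 among the genes with the smallest p in FCP against Mock), so its levels and fold changes are given as a description. Calls of the fit over all genes are counted for the 10 genes only beside the share of all genes called, and they are no evidence about the family. In cells given aC or FCP, the RNA of all 6 binding proteins and of STC2 was lower than in Mock cells and in FBG cells, while STC1 was highest in aC cells. IGF2R was slightly higher in aC and FCP cells, and lower once trends on GC content and length were removed.

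The IGFs are secreted peptides that signal growth and survival through IGF1R, a receptor tyrosine kinase. IGFBP2 to IGFBP6 bind them with high affinity outside the cell, which can hold them away from the receptor or keep a reserve of them, and pappalysin proteases free them by cutting IGFBP4 and IGFBP5. STC1 and STC2 block those proteases, IGF2R carries IGF2 and mannose 6-phosphate-tagged enzymes to lysosomes, and IGFBP7 binds IGFs only weakly.

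RNA was sequenced from BEAS-2B cells, a human bronchial epithelial line immortalised with a viral oncogene, labelled wild type and grown in LHC-9, a medium without serum. The aC group received the αC domain of fibrinogen, the FCP group the preparation that the labels call Der m 1-derived FCPs, and the FBG group fibrinogen, each at 4 ng/µl for 4 h. Der m 1 is a cysteine protease allergen from a mite of house dust, Dermatophagoides microceras. The Mock group received PBS. Each group has 2 libraries that the labels call biological replicates. The labels do not say whether these came from separate cultures, so the p-values reflect how far 2 libraries of a group differed, and that spread could be technical.

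Library totals ran from 22248780 to 22258791 counts in aC, from 21680688 to 21715092 in FCP, from 15137196 to 15144403 in FBG and from 16553366 to 16561302 in Mock. Within a group, the variance between the 2 libraries was 1.24 to 1.33 times that of counting alone. The first principal component, with 75.4% of the variance, put aC and FCP libraries on one side and FBG and Mock libraries on the other. The epithelial label was met in part in FBG and Mock cells. KRT8 had 691 to 693 CPM (counts scaled to a common library size) in aC, 737 to 749 in FCP, 424 to 434 in FBG and 501 to 504 in Mock, and KRT18 also was abundant in all 8 libraries. GRHL2 had 469 and 548 counts in aC, 471 and 519 in FCP, 9 and 3 in FBG and 0 in both Mock libraries, and TP63 had 2595 and 2552 in aC, 1811 and 1820 in FCP, 1 and 3 in FBG and 1 in each Mock library. KRT5, a basal cell keratin, was 786-fold higher in aC and 775-fold higher in FCP than in Mock after 4 h. The 10 epithelial markers, all tested and all higher in aC and in FCP than in Mock, summed to 3562 and 3628 CPM in aC, 3638 and 3686 in FCP, 825 and 814 in FBG and 962 and 971 in Mock. The 10 fibroblast markers summed to 257 and 258 CPM in aC, 247 in both FCP libraries, 1242 and 1251 in FBG and 2408 and 2442 in Mock. Most of each sum was COL1A1, with means of 184 CPM in aC, 173 in FCP, 1089 in FBG and 2155 in Mock. Of the 8 tested, 7 were lower and 1 higher in aC than in Mock, and 6 were lower and 1 higher in FCP. FAP went the other way, with means of 4.29 CPM in aC, 4.74 in FCP, 1.04 in FBG and 0.8 in Mock, and COL3A1 had 0 counts in every group. Markers of 5 leukocyte genes summed to 11.8 to 32.6 CPM and of 5 endothelial genes to 0.808 to 3.64 CPM over the 8 libraries. The labels do not say whether all libraries came from 1 stock of cells, and a difference between stocks and the effect of treatment cannot be told apart in any comparison of groups below. The part of these marker differences in the results was not tested, and in bulk RNA fewer cells of a type and less RNA per cell cannot be told apart.

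The binding protein genes lie on 5 chromosomes. On GRCh38.p14, IGFBP2 spans chr2:216632828-216664436 on the plus strand and IGFBP5 chr2:216672105-216695549 on the minus strand, 7669 bases apart. IGFBP3 lies at chr7:45912245-45921272 on the minus strand, IGFBP4 at chr17:40443450-40457725 on the plus strand, IGFBP6 at chr12:53097667-53102340 on the plus strand and IGFBP7 at chr4:57030773-57110385 on the minus strand. STC2 lies at chr5:173314723-173328414 on the minus strand, IGF1R at chr15:98648539-98964530 and IGF2R at chr6:159969082-160111504, both on the plus strand. Reads were counted over all exons of a gene without regard to strand. POLR2B, on the strand opposite IGFBP7 and overlapping it, had 3503 to 4644 counts per library, so counts of IGFBP7 could include or lose reads at that overlap.

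The promoters of the 4 genes with the highest Mock levels among those that were lower in aC and FCP are shown because these genes were lower together in aC and FCP. Each is the 250 bases before the annotated start, from RefSeq (GRCh38.p14), at chr2:216632578-216632827 for IGFBP2, chr7:45921273-45921522 for IGFBP3, chr17:40443200-40443449 for IGFBP4 and chr5:173328415-173328664 for STC2. Capitals mark CAGGTG on either strand (CACCTG when read on the opposite one), an E2 box to which ZEB and SNAI repressors are known to bind, and, in IGFBP4, the TATA box TATAAA.
IGFBP2: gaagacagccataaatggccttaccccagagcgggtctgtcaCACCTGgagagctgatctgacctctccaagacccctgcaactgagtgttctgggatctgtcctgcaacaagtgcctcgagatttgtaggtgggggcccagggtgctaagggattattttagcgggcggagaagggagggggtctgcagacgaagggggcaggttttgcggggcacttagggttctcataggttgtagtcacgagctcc
IGFBP3: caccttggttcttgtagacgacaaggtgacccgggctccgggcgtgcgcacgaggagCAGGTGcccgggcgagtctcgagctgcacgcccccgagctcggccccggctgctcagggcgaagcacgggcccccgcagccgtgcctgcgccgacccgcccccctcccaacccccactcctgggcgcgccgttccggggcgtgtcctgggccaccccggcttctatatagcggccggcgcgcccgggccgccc
IGFBP4: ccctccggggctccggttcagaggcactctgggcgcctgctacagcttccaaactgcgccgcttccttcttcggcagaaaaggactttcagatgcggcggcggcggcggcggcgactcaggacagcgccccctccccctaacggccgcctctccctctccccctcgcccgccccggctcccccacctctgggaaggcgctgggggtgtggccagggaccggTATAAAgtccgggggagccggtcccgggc
STC2: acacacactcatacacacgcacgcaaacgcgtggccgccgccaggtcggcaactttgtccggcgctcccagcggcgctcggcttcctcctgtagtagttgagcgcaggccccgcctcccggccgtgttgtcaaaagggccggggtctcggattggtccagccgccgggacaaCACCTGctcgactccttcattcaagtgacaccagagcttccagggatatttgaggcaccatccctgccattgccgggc
Promoters were held for 8 of the 10 genes, not for IGFBP7 and STC1, and motifs were searched on both strands in 300 bases, 250 before and 50 after the start. CAGGTG was found in 5 of the 8 promoters (IGFBP2, IGFBP3, IGFBP6, IGF2R and STC2) and in 20.6% of all 35116 promoters. It began 208 bases before the start in IGFBP2, 193 in IGFBP3 and 78 in STC2. TATAAA was found in IGFBP4 only, 29 bases before the start, and in 11.5% of all promoters. The GC box GGGCGG was found in 6 of the 8 and in 45% of all, the hypoxia response core ACGTG in IGF1R and IGF2R and in 21.4% of all, and the TEAD site GGAATG in IGFBP5 and IGFBP6 and in 14% of all. The AP-1 site TGANTCA, in 7.71% of all promoters, and TGATGNA, the start of the CEBP-ATF element, in 9.99%, were found in none of the 8. GC content was 55.3% in IGFBP2, 64% in STC2, 74% in IGFBP4 and 74.7% in IGFBP3, against a median of 58.7%. These matches describe the sequence and were not tied to any factor in these data.

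Levels are given as CPM after scaling of library sizes by the trimmed mean of M-values (TMM), and within a group as both libraries. Differences are log2 fold changes from the edgeR fit over 8 libraries (n = 2 libraries per group), each with the larger of its fitted standard error and its counting error.

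IGFBP2, a high-affinity carrier of IGF2 that also binds integrins, showed the widest span of group means on the log2 scale, at 5.22, against 3.76 for IGFBP4, the next. It had 12.7 and 13 CPM in aC, 11.9 and 9.69 in FCP, 137 and 139 in FBG and 402 and 405 in Mock. The aC and FCP libraries lay far below all FBG libraries, and FBG libraries lay below Mock libraries, with no overlap. Against Mock, its log2 fold change was -4.97 ± 0.06 in aC, -5.22 ± 0.066 in FCP and -1.55 ± 0.035 in FBG, which is 31.4-fold, 37.4-fold and 2.93-fold lower. Against FBG it was -3.42 ± 0.063 in aC and -3.68 ± 0.069 in FCP.

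IGFBP4, a carrier that restrains IGF action until pappalysin cuts it, had the highest TPM, a level corrected for gene length, of the 10 genes in every group (348 ± 2.31 in aC, 340.1 ± 1.66 in FCP, 2194 ± 13.6 in FBG and 3491 ± 19.9 in Mock, SD, n = 2). It had 229 and 230 CPM in aC, 227 and 228 in FCP, 1706 and 1722 in FBG and 3066 and 3084 in Mock. Levels of aC and FCP lay within 3 CPM of each other, far below FBG and Mock. On the log2 scale, the fold change against Mock was -3.75 ± 0.015 in aC, -3.76 ± 0.015 in FCP and -0.84 ± 0.008 in FBG. Among all genes ordered by TPM, IGFBP4 ranked 404 and 400 in aC, 416 and 417 in FCP, 50 and 49 in FBG and 30 in both Mock libraries.

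IGFBP3, the main IGF carrier of blood plasma, had 128 and 133 CPM in aC, 162 and 166 in FCP, 890.1 and 895 in FBG and 1216 and 1206 in Mock. All 4 groups stood apart, and aC was the lowest. The log2 fold change against Mock was -3.22 ± 0.02 in aC, -2.88 ± 0.019 in FCP and -0.44 ± 0.016 in FBG, and between aC and FCP it was -0.34 ± 0.025.

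IGFBP5, a carrier that binds matrix and is also cut by pappalysins, was sparse. It had 17 and 22 counts in aC, 30 and 21 in FCP, 79 and 74 in FBG and 102 and 92 in Mock, or 0.719 and 0.93 CPM in aC, 1.31 and 0.917 in FCP, 5.32 and 4.99 in FBG and 6.8 and 6.13 in Mock. The aC and FCP libraries overlapped each other and lay below those of FBG and Mock. Its log2 fold change against Mock was -2.96 ± 0.253 in aC, -2.53 ± 0.241 in FCP and -0.33 ± 0.22 in FBG, the last not called.

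IGFBP6, which prefers IGF2, had 4.14 and 4.78 CPM in aC, 4.02 and 3.32 in FCP, 8.02 and 7.68 in FBG and 9.67 and 8.2 in Mock. IGFBP7, a matrix-associated relative of the carriers, had 122 and 121 CPM in aC, 111 and 107 in FCP, 226 and 232 in FBG and 270.4 and 271 in Mock. Both genes differed less than the other binding proteins, and neither had overlap between the pair aC and FCP and the pair FBG and Mock. Against Mock, the log2 fold change of IGFBP6 was -1 ± 0.163 in aC and -1.28 ± 0.165 in FCP, and that of IGFBP7 was -1.16 ± 0.026 in aC and -1.31 ± 0.026 in FCP. In FBG it was -0.19 ± 0.162 for IGFBP6, not called, and -0.24 ± 0.025 for IGFBP7.

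**Figure D1:**
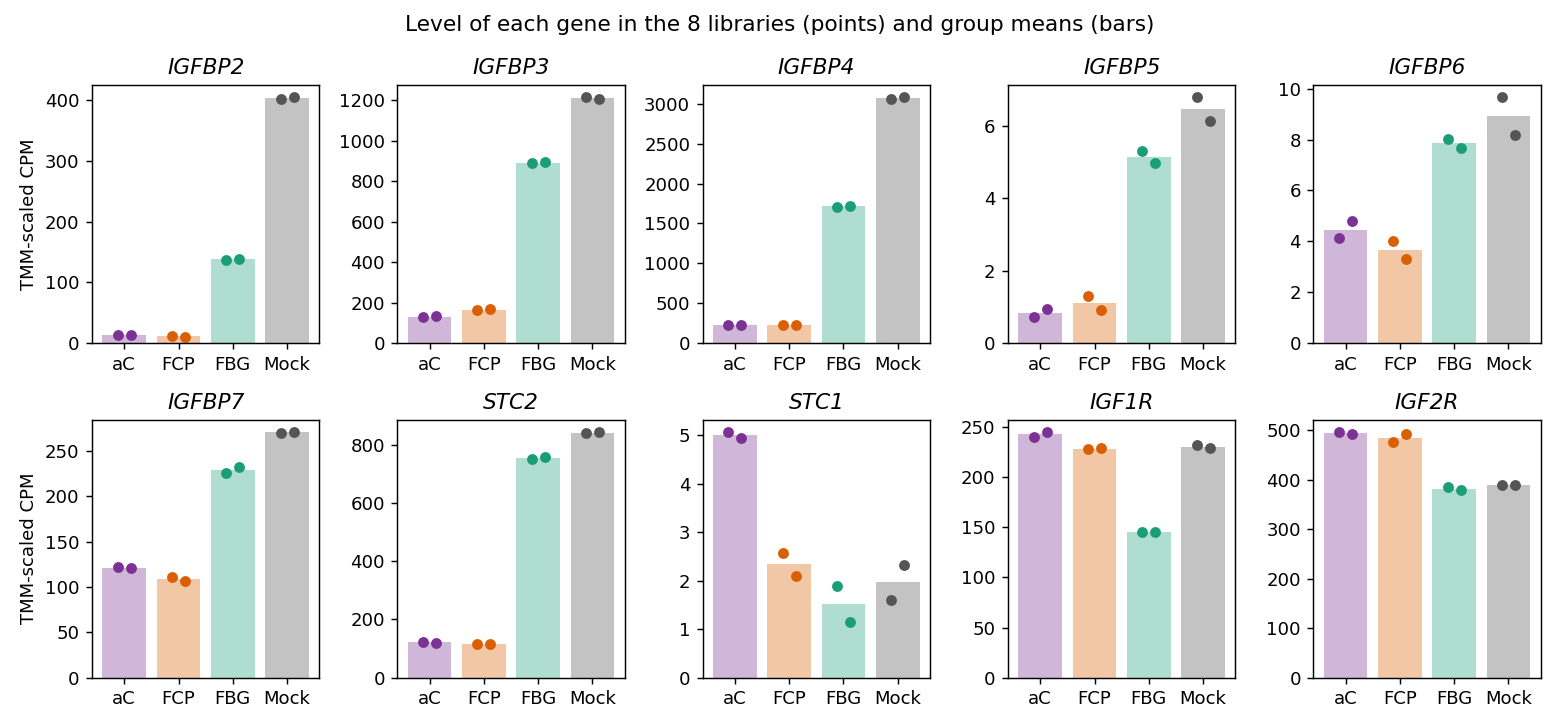
Level of each of the 10 genes in TMM-scaled CPM (vertical axes, each from 0) in the aC, FCP, FBG and Mock libraries, with points for the 2 libraries of a group and bars for their mean. The 6 binding proteins and STC2 were lowest in aC and FCP, STC1 was highest in aC at 5.07 and 4.95 CPM, and IGF1R was lowest in FBG at 145 CPM.

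STC2, an inhibitor of pappalysin that binds it covalently, followed the binding proteins in aC and FCP but was close to Mock in FBG. It had 124 and 118 CPM in aC, 115 and 114 in FCP, 749 and 757 in FBG and 839 and 843 in Mock. Relative to Mock, the log2 fold change was -2.79 ± 0.021 in aC, -2.88 ± 0.022 in FCP and -0.16 ± 0.018 in FBG. Its paralog STC1, on chromosome 8, which also inhibits pappalysins, had far fewer reads: 120 and 117 counts in aC, 59 and 48 in FCP, 28 and 17 in FBG and 24 and 35 in Mock. These are 5.07 and 4.95 CPM in aC, 2.58 and 2.1 in FCP, 1.89 and 1.15 in FBG and 1.6 and 2.33 in Mock. Only aC stood clear of Mock, while FCP and FBG each overlapped it. Against Mock, the log2 fold change of STC1 was 1.35 ± 0.256 in aC, 0.25 ± 0.263 in FCP and -0.37 ± 0.286 in FBG, and without Mock replicate 1 the value in FCP was -0.01. Between aC and FCP it was 1.1 ± 0.246, a call lost with DESeq2 at the same value, without FCP replicate 2, where it was 0.96, and without aC replicate 1, where it was 1.08.

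IGF1R, the signalling receptor, had 240.3 and 245 CPM in aC, 228 and 229 in FCP, 145 in both FBG libraries and 232 and 229 in Mock. It was lowest in FBG, and the other 3 groups lay within 20 CPM of one another. The log2 fold change against Mock was 0.07 ± 0.022 in aC, -0.01 ± 0.022 in FCP and -0.67 ± 0.028 in FBG. The sign of the first 2 depended on the scaling: without TMM the value in FCP was 0.21, and with trends on GC content and length removed it was -0.53 in aC and -0.58 in FCP.

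IGF2R, the clearance receptor, had 496 and 492 CPM in aC, 475 and 492 in FCP, 385 and 378 in FBG and 389 in both Mock libraries. The aC and FCP libraries lay above the others. The log2 fold change against Mock was 0.35 ± 0.019 in aC, 0.31 ± 0.019 in FCP and -0.03 ± 0.02 in FBG, and with GC and length trends removed it turned to -0.39 in aC and -0.38 in FCP. The tested genes of chromosome 6, where IGF2R lies, had a median log2 fold change of 0.48 in both aC and FCP, against 0.06 over all genes.

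**Figure D2:**
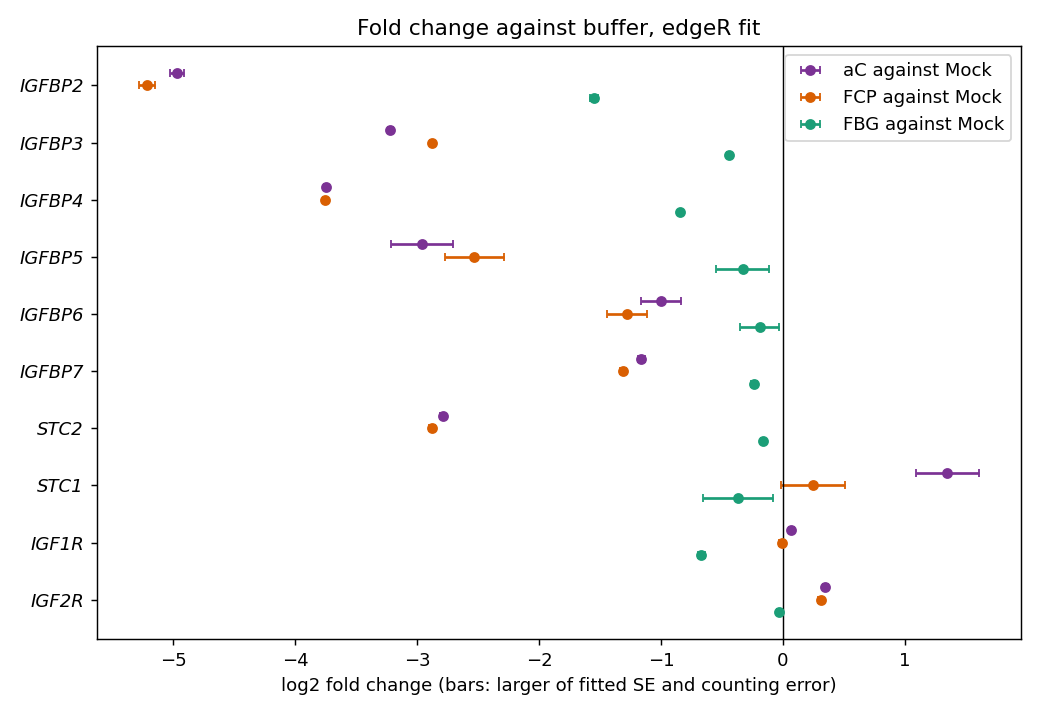
Log2 fold change against Mock (horizontal axis) of each gene in aC, FCP and FBG from the edgeR fit. Points are estimates and bars the larger of the fitted standard error and the counting error; IGFBP2 lies farthest left at -5.22 in FCP and -4.97 in aC, and STC1 in aC farthest right at 1.35.

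A gene was called where its Benjamini-Hochberg adjusted p in edgeR's quasi-likelihood test was under 0.05, over 16307 tested genes. In aC against Mock, 7 of the 10 genes were called lower and 3 higher, where 74.7% of all tested genes were called, 38% higher and 36.7% lower. In FCP against Mock, 7 were called lower and 1 higher, with 73.4% of all genes called, 37.3% higher and 36.1% lower. In FBG against Mock, 6 were called lower and none higher, with 50.4% called, 24.2% higher and 26.3% lower. The median log2 fold change of the 10 genes was -1.98 in aC against Mock, -1.92 in FCP against Mock and -0.35 in FBG against Mock, where it was 0.06, 0.06 and 0.02 over all genes. Against FBG, 7 genes were called lower and 3 higher in aC and likewise in FCP, with 68.3% of all genes called in aC (33.8% higher, 34.5% lower) and 66.8% in FCP (32.6% higher, 34.2% lower). Between aC and FCP, 5 were called higher in aC (IGFBP2, IGFBP7, IGF1R, STC1 and STC2) and 1 lower (IGFBP3), with 9.01% of all genes called, 4.57% higher and 4.45% lower. Nothing is read from these counts, because the genes were picked with the results known. The comparisons with Mock share the Mock libraries, and those with FBG share the FBG libraries.

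Most differences between aC and FCP were small. On the log2 scale they were 0.25 ± 0.087 for IGFBP2, 0.16 ± 0.028 for IGFBP7, 0.09 ± 0.021 for IGF1R and 0.08 ± 0.028 for STC2. They were 0.01 ± 0.043 for IGFBP4, -0.43 ± 0.307 for IGFBP5, 0.28 ± 0.165 for IGFBP6 and 0.03 ± 0.018 for IGF2R, and none of these 4 was called. Of the 10 genes, 6 were called between aC and FCP with all libraries, 4 without FCP replicate 1, 2 without FCP replicate 2, 3 without aC replicate 1 and 4 without aC replicate 2. Over all tested genes these fits called 1470, 865, 853, 909 and 867.

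The make-up of the binding protein RNA differed as well as its amount. Summed over IGFBP1 to IGFBP7, it came to 771 and 780.3 TPM in aC, 769 and 762 in FCP, 3588 and 3624 in FBG and 5377 and 5402 in Mock. IGFBP4 made up 44.9% and 44.8% of that sum in aC, 44.1% and 44.8% in FCP, 60.9% and 60.8% in FBG and 64.7% and 64.9% in Mock. IGFBP7, the weak IGF binder, made up 33.1% and 32.5% in aC, 29.8% and 29% in FCP, 11.1% and 11.3% in FBG and 7.89% and 7.87% in Mock. IGFBP7 thus held a larger share in aC and FCP although its own level was lower there. The share of IGFBP2 was 2.69% and 2.73% in aC, 2.49% and 2.06% in FCP, 5.28% and 5.29% in FBG and 9.15% and 9.21% in Mock, and that of IGFBP3 ranged from 17.4% to 22.6% over the 8 libraries.

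**Figure D3:**
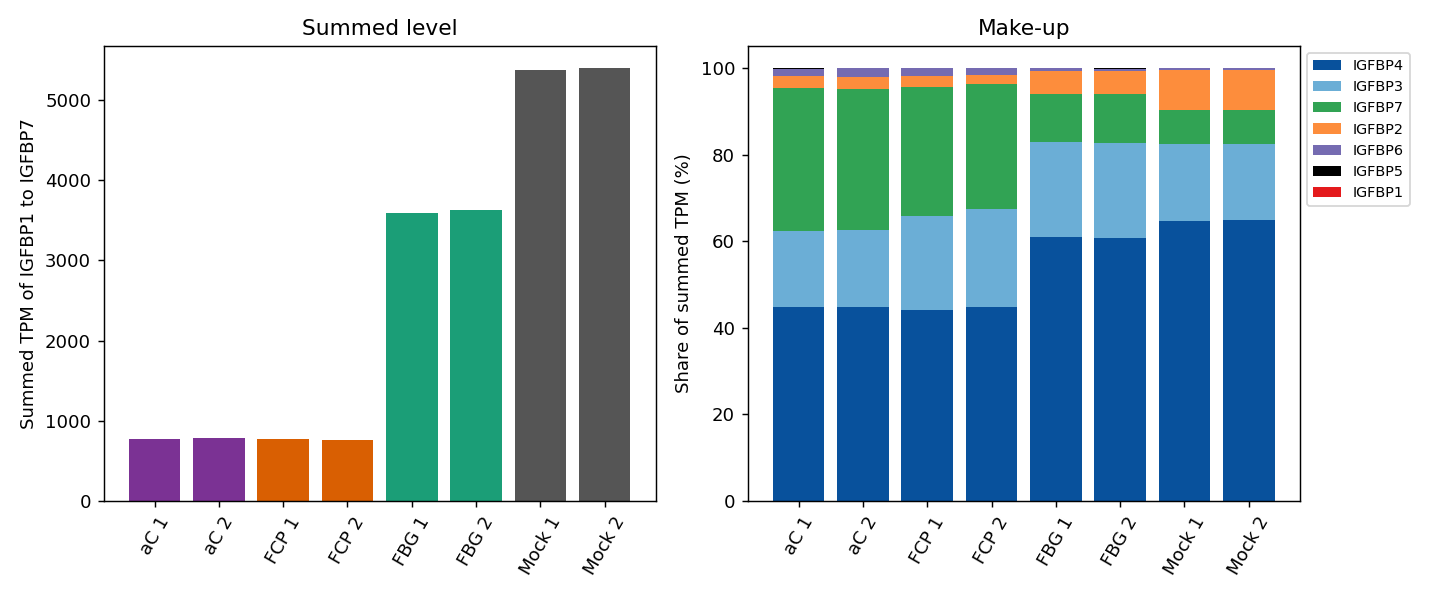
Left, summed TPM of IGFBP1 to IGFBP7 in each library; right, the share of each gene in that sum in percent, with aC and FCP libraries left of FBG and Mock. The sum was 762 to 780.3 TPM in aC and FCP libraries, and the IGFBP7 share was 29% to 33.1% there, against 7.87% and 7.89% in Mock.

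The patterns of the genes over the 8 libraries were compared by the root mean square difference of their centred log2 CPM, as a description. Among the 10, IGFBP6 and IGFBP7 were closest at 0.118, then IGFBP3 and STC2 at 0.186. Among 15311 other genes, TAGLN, an actin-binding protein of smooth muscle, was nearest to IGFBP3 at 0.074, followed by CREB3L1 at 0.119 and PPM1H at 0.123. COL1A1, a fibrillar collagen chain and 1 of the fibroblast markers above, was nearest to IGFBP4 at 0.128, followed by KCNJ8 at 0.226 and NES at 0.229. EPB41L3 at 0.226, TCF21 at 0.248 and PDE1C at 0.265 were nearest to IGFBP2.

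IGFBP1 lies 18585 bases from IGFBP3. It had 3 and 0 counts in aC, 1 and 1 in FCP, 7 and 12 in FBG and 28 and 24 in Mock. Its summed level in aC was 0.0366 times that in Mock, with a 95% counting interval of 0.00731 to 0.113, and in FCP 0.0252 times, with an interval of 0.00297 to 0.0957. Within 200000 bases of IGFBP3, ADCY1 was higher in FCP than in Mock, at 2.49 ± 0.387 (adjusted p = 5e-06), as were SEPTIN7P2 at 0.65, GTF2IP13 at 2.69, LOC730234 at 2.1 and LOC112267918 at 2.08, so genes around IGFBP3 differed in both directions. Within 200000 bases of IGFBP2 and IGFBP5, RPL37A was lower, at -1.18 ± 0.023 (adjusted p = 1.03e-21), and SMARCAL1 was lower, at -0.21 ± 0.079 (adjusted p = 0.0218), while RPL37A-DT at 0.26 and LOC101928156 at -0.28 were not called.

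Counts of the ligands were near 0. IGF1 had 1 and 2 counts in aC, 6 and 2 in FCP, 3 and 0 in FBG and 0 in both Mock libraries. IGF2 had 0 in both aC libraries, 1 and 1 in FCP, 4 and 4 in FBG and 10 and 6 in Mock. IGF2 overlaps INS-IGF2 on the same strand, and reads in exons shared by genes may have gone uncounted, so its counts do not show that it is absent. Neither passed the filter, and 3 counts corresponded to 0.135 CPM in aC, 0.138 in FCP, 0.198 in FBG and 0.181 in Mock. Values for the genes below are log2 fold changes against Mock, from the same fit, and counts of higher and lower genes are of those called. Of all genes, 38% were called higher and 36.7% lower in aC, 37.3% and 36.1% in FCP, and 24.2% and 26.3% in FBG. Of 12 other IGF axis genes, 6 were tested, and 2 were higher and 4 lower both in aC and in FCP than in Mock. INSR, the insulin receptor, was lower at -1.33 ± 0.147 in aC (adjusted p = 3.04e-08) and -1.21 ± 0.147 in FCP (adjusted p = 1.34e-07). IGF2BP1, an RNA-binding protein of IGF2 mRNA, was higher at 1.08 ± 0.079 in aC and 1.03 ± 0.079 in FCP, and IGFBPL1 was lower at -1.08 in aC and -1.13 in FCP.

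Of 13 genes for proteases that cut binding proteins and their regulators, 9 were tested. In aC 4 were higher and 4 lower than in Mock, and in FCP 3 were higher and 4 lower, beside 74.7% of all genes called in aC and 73.4% in FCP. PAPPA2, a pappalysin that cuts IGFBP3 and IGFBP5, had 34 and 28 counts in aC, 32 and 32 in FCP, 9 and 2 in FBG and 3 and 2 in Mock. Its log2 fold change against Mock was 2.93 ± 0.671 in aC and 3.02 ± 0.67 in FCP. PAPPA2 passed the filter on low counts through its aC and FCP libraries, where it was high, so no p is given. It is among the proteases counted as higher above. PAPPA, which cuts IGFBP4, had 177 and 187 counts in aC, 119 and 131 in FCP, 59 and 75 in FBG and 69 and 70 in Mock. It was higher at 0.73 ± 0.165 in aC (adjusted p = 0.000412), a call lost with GC and length trends removed, where it was 0.08. In FCP its value was 0.24 ± 0.167 (adjusted p = 0.207), and -0.39 with the trends removed. ADAM12, a membrane-bound protease, was higher at 2.26 ± 0.249 in aC and 2.28 ± 0.249 in FCP. PRSS3, which has close relatives that may share its reads, was higher at 1.9 in aC and 1.88 in FCP. The complement protease C1S was lower at -0.94 in aC and -1.21 in FCP.

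Of 10 other genes with an IGFBP-type domain, 6 were tested, and in aC and in FCP 4 were lower and none higher than in Mock, where 36.7% and 36.1% of all genes were called lower. CCN2, a matricellular protein, was lower at -2.77 ± 0.013 in aC (adjusted p = 3.57e-30) and -2.82 ± 0.014 in FCP (adjusted p = 5.31e-30). CCN1 was lower at -2.25 ± 0.012 in aC and -2.14 ± 0.012 in FCP, KAZALD1 at -2.06 in aC and -2.33 in FCP, and CRIM1 at -1.03 in aC and -1.05 in FCP. Of 10 cell-surface partners of binding proteins, 8 were tested: 3 were higher and 5 lower in aC, and 2 were higher and 5 lower in FCP, where 38% and 36.7% of all genes were in aC and 37.3% and 36.1% in FCP. LRP1, an endocytic receptor that binds IGFBP3, was lower at -1.11 ± 0.026 in aC (adjusted p = 9.9e-17) and -1.24 ± 0.027 in FCP (adjusted p = 2.39e-17), and ITGB3 was lower at -1.18 in aC and -1.4 in FCP. ITGAV was higher at 1.26 in aC and 1.04 in FCP, and PTPRB at 1.52 in aC and 1.56 in FCP.

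All 33 genes of receptor signalling were tested. In aC 9 were higher and 16 lower than in Mock, and in FCP 10 were higher and 15 lower, so 25 of 33 were called in each, a share near the 74.7% of all genes called in aC and 73.4% in FCP, with a median log2 fold change of -0.1 in aC and -0.08 in FCP, where it was 0.06 over all genes in both. The adaptors that couple IGF1R and the insulin receptor to PI3-kinase were both lower: IRS1 at -0.95 ± 0.023 in aC (adjusted p = 4.64e-20) and -0.83 ± 0.023 in FCP (adjusted p = 6.25e-19), and IRS2 at -1.2 ± 0.057 in aC (adjusted p = 1.01e-14) and -1.54 ± 0.058 in FCP (adjusted p = 1.54e-16). GRB14, an adaptor that inhibits the receptors, was higher at 2 ± 0.266 in aC and 1.89 ± 0.268 in FCP. RICTOR was higher at 1.76 in aC and 1.72 in FCP, and PHLPP1, a phosphatase of AKT, was lower at -1.27 in aC and -1.3 in FCP. Of 14 genes of IGF2R trafficking and lysosomal sorting, all tested, 3 were higher and 8 lower in aC, and 4 were higher and 9 lower in FCP, against 38% higher and 36.7% lower of all genes in aC and 37.3% and 36.1% in FCP. AP1M1 was lower at -0.95 in both, and SORT1 at -0.82 in aC and -0.72 in FCP. TIMP2, counted in this list but an inhibitor of matrix metalloproteinases rather than a sorting gene, was lower at -1.4 in aC and -1.41 in FCP. GNPTAB, which tags enzymes for IGF2R, was higher at 0.96 in aC and 0.85 in FCP.

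STC2 is known as a target of ATF4 in the integrated stress response and of hypoxia-inducible factors. Of 16 ATF4 target and stress response genes, 15 were tested, and 3 were higher and 10 lower in aC than in Mock, and 4 higher and 9 lower in FCP, beside 74.7% of all genes called in aC and 73.4% in FCP. CHAC1 was lower at -2.66 ± 0.214 in aC (adjusted p = 1.41e-10) and -2.5 ± 0.212 in FCP (adjusted p = 3.77e-10), VLDLR at -1.7 in aC and -1.56 in FCP, and PHGDH at -1.3 in aC and -1.47 in FCP, while SLC7A11 was higher at 1.48 in aC and 1.3 in FCP. Of 17 hypoxia-inducible factor targets and subunits, 15 were tested, and 8 were higher and 3 lower in aC and likewise in FCP, a total near the share of all genes called. LDHA and SESN2, not tested, have a copy on a patch sequence and were listed at 0 to 2 counts, which does not show that they are absent. NDRG1 was higher at 3.23 ± 0.1 in aC (adjusted p = 1.92e-21) and 2.88 ± 0.101 in FCP (adjusted p = 1.89e-20), VEGFA at 1.7 in aC and 1.65 in FCP, and ANGPTL4 at 1.42 in aC and 0.92 in FCP. ADM was lower at -2.94 in aC and -2.88 in FCP. Over the 8 lists, 106 of 125 genes were tested, of which 32 were higher and 54 lower in aC than in Mock, 33 and 53 in FCP, and 23 and 47 in FBG, beside 74.7%, 73.4% and 50.4% of all genes called in aC, FCP and FBG.

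**Figure D4:**
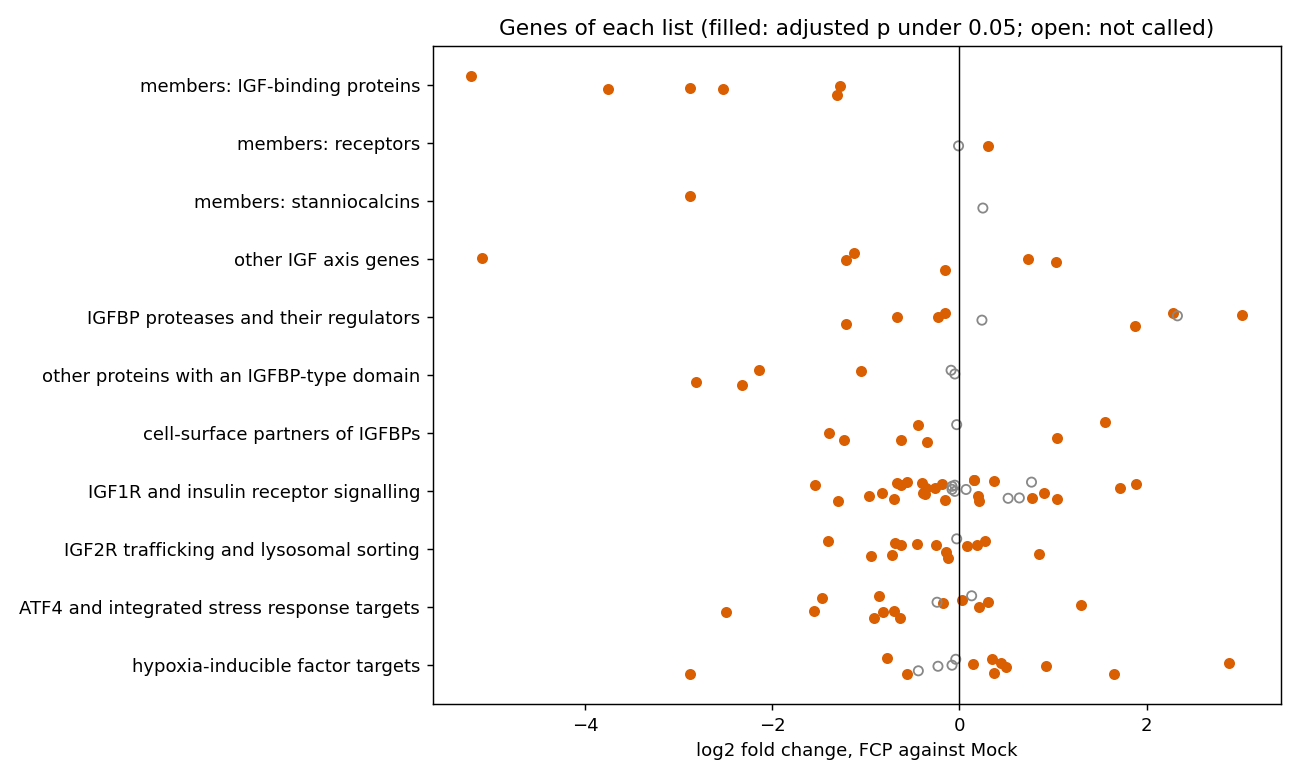
Log2 fold change in FCP against Mock (horizontal axis) of tested genes, with lists of genes as rows. Filled points had an edgeR adjusted p under 0.05 and open points did not. The values given here are for the 8 lists only, which leave out IGFBP2 to IGFBP7, IGF1R, IGF2R, STC1 and STC2. Within the 8 lists, values run from IGFBP1 at -5.11 to PAPPA2 at 3.02, with 53 of 106 called lower and 33 higher. No gene of the list of other IGFBP-type domain proteins lies above 0.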

How the data were processed

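Enriched mRNA of 8 libraries was sequenced. The deposited values are raw counts: the authors ran featureCounts 1.6.0 on read pairs over exons, without a strand option, per the file headers. The submitters' processing notes give featureCounts 1.6.2, Trimmomatic 0.39, HISAT2 2.2.1 and SAMtools 1.9, and the build GRCh38.p14. Genes that passed filterByExpr were fitted with edgeR 4.0.16 in R 4.3.3 (quasi-likelihood, robust, TMM scaling, prior count 2, 1 coefficient per group, 4 residual degrees of freedom). The 6 pairwise comparisons of groups were each adjusted by Benjamini-Hochberg over 16307 genes and called under 0.05. Standard errors are the fold change over the root of F, and are approximate. Counting intervals are exact binomial at 95% and, like the floor of 3 counts, cover counting error only. TPM used the deposited gene lengths. The exon union of IGF1R is far longer than its longest transcript, so its TPM is low. Alternatives were DESeq2 1.42.0, its size factors, library size alone, no filter, GC and length trends removed (transcripts of GENCODE, 13985 genes), a replicate term and each library left out. The procedure was tested on simulated counts for FCP against Mock, with 100 genes changed. It recovered 71% of log2 changes of 1 and 91% of log2 changes of 2, with 5 false calls in each. In the data, 73.4% of the 16307 tested genes were called in FCP against Mock. The simulation therefore does not give error rates for scaling when most genes differ. The 10 genes, the lists and the tests were chosen with earlier results of these data known. Genes named from a list are up to 4 with the largest fold change called in FCP against Mock, plus IGF1, IGF2, INSR, IGFBP1, PAPPA, PAPPA2, IRS1 and IRS2. Protein sequences and a genome were not used here.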

Additional observations from a re-analysis of the deposited data

How the results depend on the processing

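The 6 binding proteins and STC2 in aC and in FCP against Mock and FBG kept direction and call in 14 of 14 settings. With library size alone, the all-gene median moved to 0.28 (FCP) and 0.29 (aC) against Mock, genes called in FCP against Mock split 7679 higher and 4493 lower (TMM: 6085 and 5884), in aC against Mock 7782 and 4489 (6199 and 5984) and in FBG against Mock 5186 and 3010 (3941 and 4285), IGF1R turned to 0.21 in FCP against Mock and IGF2R to 0.09 in FBG against Mock. With GC and length trends removed, these splits were 4275 and 6398, 4351 and 6417, and 2720 and 4448. There IGF2R was -0.38 in FCP and -0.39 in aC against Mock, -0.1 and -0.11 in FCP and aC against FBG and -0.01 between aC and FCP, IGF1R was -0.53 in aC against Mock, IGFBP4 -0.06 between aC and FCP, IGFBP6 0 in FBG against Mock and PAPPA -0.39 in FCP against Mock, while IGF1R in FCP against Mock passed the threshold at -0.58 and IGF2R in FBG against Mock at -0.28 (and at -0.06 with DESeq2 size factors). Between aC and FCP, 1470 genes and 6 of the 10 were called, against 830 and 2 with DESeq2, and 3 of the 10 with trends removed. Leaving out 1 library, these ranged from 853 to 1616 genes, 2 to 5 of the 10 and 17 to 28 list genes (27 with all libraries), and STC1 in FCP against Mock ranged from -0.01 to 0.53. STC1 in FCP against FBG, 0.62, lost its call in 7 of 14 settings, IGFBP2, STC2, IGF1R and STC1 between aC and FCP in 11, 9, 5 and 3, and IGF1R in aC against Mock in 2. Some list genes kept their direction in FCP against Mock in all 14 settings but varied in size. SLC7A11 ranged from 0.32 to 1.52, ITGAV from 0.39 to 1.26, PTPRB from 0.73 to 1.95 and RICTOR from 0.79 to 1.94. The cause of these changes was not tested. Same-numbered libraries did not deviate together (6 correlations from -0.022 to 0.018). This does not show that they were unpaired, since libraries of a group differed little beyond counting error. A replicate block called 11906 genes in FCP against Mock, against 11969 without. Under it STC1 in FCP against FBG (0.63), and IGFBP2 (0.25) and STC2 (0.08) between aC and FCP, lost their calls. Depth limits IGFBP5, IGFBP6 and STC1, whose counts were under 150 per library.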
